A study of Homo sapiens with 6 samples.

Results

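The genes described are 9 oncofetal liver tumor genes, namely GPC3, DLK1, PEG10, MEG3, IGF2BP1, IGF2BP2, IGF2BP3, LIN28B and SALL4. They were followed through 4 lists of regions bound by RNA polymerase II, and a region was taken as belonging to a gene when the authors' annotation named that gene. By this rule 683 of the 271336 listed regions belonged to them, and 8 of the 9 were among the 16428 genes named in the lists, since no region named SALL4. Chromatin immunoprecipitation sequencing (ChIP-seq) had been carried out in untreated HepG2 cells, a human hepatoma line, with an antibody to RPB1 and an antibody to RPB1 phosphorylated on Ser2 (pSer2-RPB1). The WT cells were SHP-1-WT CRISPR controls that had received a nontargeting guide, and the KO cells were SHP-1-KO cells made with guides to exons of the phosphatase domain of PTPN6, the gene of the tyrosine phosphatase SHP-1. Both kinds of cells were grown from single-cell clones, so the effects of genotype and of clone cannot be told apart. Each antibody was used in 1 library of each genotype, the 2 input libraries were not analysed here, and no comparison has a replicate check.

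Oncofetal genes are active in the fetal liver, are largely shut off in the adult organ and are switched on again in many liver tumors. RPB1 is the largest subunit of RNA polymerase II. It gathers at promoters, and the phosphorylation of Ser2 in its C-terminal repeats increases as the polymerase moves through the gene towards the 3′ end, so RPB1 regions usually mark starts and pSer2-RPB1 regions mark transcribed gene bodies.

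For each region the authors' peak caller gave a fold enrichment, the ratio of ChIP signal to input at the summit, and regions were ranked by it within their own list, with rank 1 the largest. The lists held 46045 RPB1 regions in WT, 41605 RPB1 regions in KO, 102674 pSer2-RPB1 regions in WT and 81012 pSer2-RPB1 regions in KO. Median fold enrichment was 5.51 and 5.62 for RPB1 and 3.69 and 3.80 for pSer2-RPB1, in WT and KO respectively. How deeply each library was sequenced is unknown, because the lists give no counts of reads. The promoter of PTPN6 itself carried RPB1 with a fold enrichment of 24.0 in WT and 17.2 in KO, a measure of polymerase on the gene that does not check the loss of the protein. Of 12 liver markers 11 were named by an RPB1 region in WT and 9 in KO, and 12 and 11 by a pSer2-RPB1 region. None of 5 fibroblast markers had an RPB1 region in either genotype. In WT 2 of 5 blood, 1 of 3 endothelial and 2 of 3 neuronal markers had one, and in KO it was 1 for each of these lists.

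The oncofetal genes were named by 111 RPB1 regions in WT, 102 RPB1 regions in KO, 234 pSer2-RPB1 regions in WT and 236 pSer2-RPB1 regions in KO. RPB1 regions named 8 of the 9 genes in each genotype, and pSer2-RPB1 regions named 7, with MEG3 and SALL4 missing. A promoter region, which in these lists lies within 1 kb of a start, was present for 7 genes in the RPB1 list of both WT and KO, beside 74.4% and 72% of all genes named in the 4 lists. For pSer2-RPB1 it was present for 6 genes in WT and 5 in KO, beside 55.1% and 48.8% of all genes. The gene without a pSer2-RPB1 promoter region in KO alone was LIN28B.

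**Figure D1:**
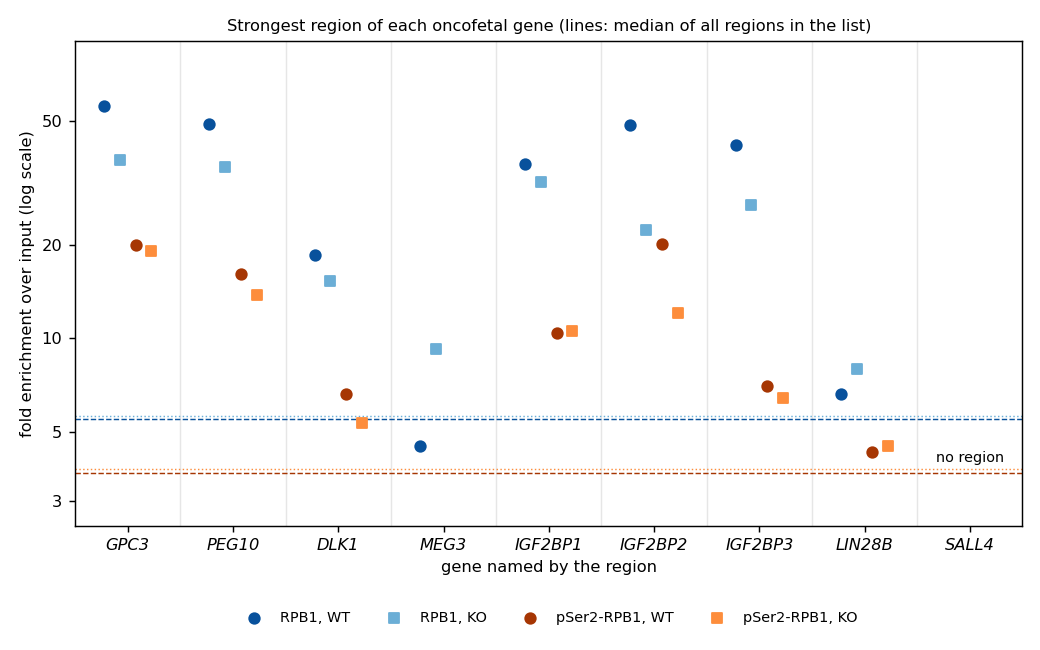
Fold enrichment over input (log scale) of the strongest region of each gene in each of the 4 libraries, 1 point per library, with the median of all regions of each list as horizontal lines. GPC3, PEG10, IGF2BP1, IGF2BP2 and IGF2BP3 sat above 20 for RPB1 in both genotypes, LIN28B and MEG3 stayed below 10, and SALL4 had no region.

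GPC3 encodes glypican-3, a heparan sulfate proteoglycan tethered to the cell surface and a widely used marker of hepatocellular carcinoma. The gene runs over 451 kb on the minus strand of the X chromosome (chrX:133535745-133987100, hg38, GENCODE release 44). Its start lay in an RPB1 region of 8617 bp in WT (chrX:133979447-133988063) with a fold enrichment of 55.7, and in a region of 8890 bp in KO (chrX:133979151-133988040) with a fold enrichment of 37.5. These were ranks 1187 and 1637 of their lists. Away from the start, RPB1 regions were many but weak, with fold enrichments in the gene body between 3.49 and 8.68 in WT and between 2.76 and 9.12 in KO. They crowded at the 5′ end. With the gene cut into 10 equal steps, they covered 52.3% of the first step in WT and 50.2% in KO, and 13.2% and 8.29% of the next.

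With pSer2-RPB1 almost the whole of GPC3 was covered. Regions covered 438395 bp of the gene in WT, which is 97.1% of its length, and 427833 bp in KO, which is 94.8%. In both genotypes this was the largest number of covered bases among the 20033 coding genes of the annotation, although by percent of length GPC3 took positions 183 and 207. Of 3667 coding genes of at least 100 kb, pSer2-RPB1 regions covered over 50% of the length in 28 in WT and in 20 in KO. The median coding gene with any cover had 9.57% covered in WT and 8.11% in KO. Of the bases of GPC3 covered in WT, 97.4% were covered in KO too, where the median was 61.6% over 3330 coding genes with at least 5 kb covered in WT. With nearly all of GPC3 covered in each genotype, this share could not be low. The single longest region of the WT pSer2-RPB1 list lay here, 89557 bp from near the start into the gene (chrX:133897190-133986746, fold enrichment 20.0, rank 198). In KO the same stretch was split, and the longest region was one of 51200 bp (chrX:133934490-133985689, fold enrichment 19.1, rank 199).

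The signal did not stop at the annotated end of GPC3. Joined across gaps of up to 1 kb, pSer2-RPB1 regions ran 11.9 kb past it in WT and 9.77 kb in KO. The nearest-gene annotation split the locus here, because 10 pSer2-RPB1 regions in WT and 15 in KO within GPC3 or 10 kb of it carried the name of the neighbor GPC4, another glypican gene. Of these, 8 in WT and 12 in KO overlapped GPC3 itself, with fold enrichments from 5.59 to 12.7 in WT and from 3.24 to 12.1 in KO. Counting regions by name therefore left out the last part of the gene, and the cover given above was measured by position.

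**Figure D2:**
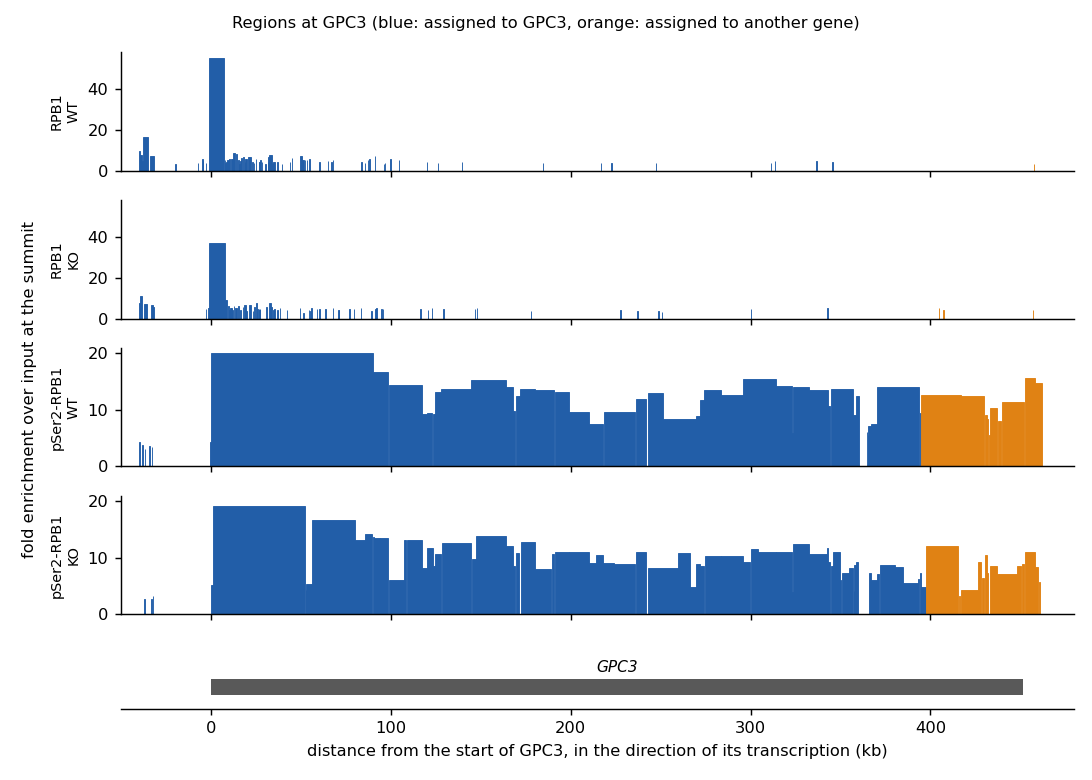
Regions at GPC3 in the 4 libraries, drawn as boxes whose width is the region (kb from the start of GPC3, along its transcription) and whose height is its fold enrichment over input. RPB1 stood at the start and pSer2-RPB1 over nearly all of the 451 kb in both genotypes, and the regions at the 3′ end were assigned to GPC4.

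Upstream of GPC3, a group of RPB1 regions lay in intergenic DNA (chrX:134018633-134026921). The strongest in WT (chrX:134022035-134024617) had a fold enrichment of 16.6, and the KO region that overlapped it (chrX:134022766-134024249) had 7.12. A neighboring pair had the higher value in KO, with 7.84 in WT (chrX:134025399-134026230) and 11.3 in KO (chrX:134025466-134026201). For the first pair the KO to WT ratio was 0.430 and for the second 1.45, where all 28495 overlapping RPB1 pairs had a median of 0.856 and a 5th to 95th percentile range from 0.465 to 1.94. The 31 bases at the WT summit of the first pair occur 2 times in hg38.

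PEG10, a paternally expressed gene derived from a retrotransposon, shares its promoter region with the divergent gene SGCE. It is 13.4 kb long (chr7:94656325-94669695, plus strand). Its promoter carried an RPB1 region of 4700 bp in WT (chr7:94655662-94660361, fold enrichment 48.9, rank 1854) and of 3795 bp in KO (chr7:94655805-94659599, fold enrichment 35.5, rank 1915). In WT a single pSer2-RPB1 region of 16403 bp covered 100% of the gene (chr7:94656218-94672620, fold enrichment 16.04, rank 468). KO cover was 98.5%, but in 2 pieces. The piece named PEG10 was 3178 bp long with a fold enrichment of 13.7 (chr7:94656243-94659420, rank 653), and the other, 13827 bp long with a fold enrichment of 7.32 (chr7:94659626-94673452, rank 4290), was named SGCE. Seen by name alone, the pSer2-RPB1 length at PEG10 would thus be 16.4 kb in WT and 3.18 kb in KO, while by position the covered bases differed by 205 bp. A cover of 100% was shared by 138 coding genes in WT.

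DLK1 and MEG3 are reciprocally imprinted neighbors on chromosome 14. DLK1, a transmembrane protein with epidermal growth factor-like repeats that marks hepatoblasts, is transcribed from the paternal copy, and MEG3, a long noncoding RNA, from the maternal copy. DLK1 (chr14:100725705-100738224, plus strand) had an RPB1 promoter region with a fold enrichment of 18.5 in WT (chr14:100726470-100727592, rank 8949) and 15.3 in KO (chr14:100726539-100727418, rank 8023). A second RPB1 region in the 3′ UTR had 9.512 in WT and 9.505 in KO. No pSer2-RPB1 region lay at its start, and the strongest lay in the 3′ UTR with 6.61 in WT (chr14:100735691-100737361, rank 6938) and 5.35 in KO (chr14:100736606-100736881, rank 11763). Regions of pSer2-RPB1 covered 3290 bp of DLK1 in WT and 1799 bp in KO, 26.3% and 14.4% of its length, and sat in the middle and at the 3′ end. Where −log10 q-values had to reach 5 the cover was 22.8% in WT and 2.20% in KO. Over all regions the KO to WT ratio of covered bases was 0.547, where the median over 9487 genes covered in both was 0.822 with a 5th to 95th percentile range from 0.212 to 1.72. Some 25.3 kb downstream of the start, in intergenic DNA, 4 small WT RPB1 regions with fold enrichments from 4.01 to 5.36 faced 2 KO regions with 4.88 and 7.60, the larger of which spanned chr14:100750334-100752521.

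At MEG3 (chr14:100779410-100861031, plus strand) the fold enrichment was low in the regions that carried its name. There were 3 RPB1 regions in WT, with 2.75, 3.95 and 4.50, and 2 in KO, with 5.40 and 9.23. All lay in an intron. The KO to WT ratio of the strongest region was 2.05, which put MEG3 at the 99.2 percentile of the 12877 genes with an RPB1 region in both lists. The ratio sets different intervals against each other, since the strongest WT region (chr14:100822604-100823034) was overlapped by no KO region. Where the intervals overlapped, the WT region at chr14:100821121-100822432 had 3.95 and the KO region at chr14:100820992-100822425 had 9.23. The strongest RPB1 region within MEG3 was named after the microRNA gene MIR2392 instead, with 19.5 in WT (chr14:100815739-100818662, rank 8665) and 14.7 in KO (chr14:100816245-100818785, rank 8324), a ratio in the opposite direction. The only pSer2-RPB1 regions within MEG3 lay at that spot too, with 3.45 in WT (chr14:100816703-100817301) and 5.39 in KO (chr14:100816516-100817478). The promoter at the first of 3 closely spaced RefSeq starts had no RPB1 region, the nearest being 3074 bp away in WT and 3683 bp away in KO. Every region given above under the name of MEG3 or MIR2392 lay upstream of that start, inside the longer gene of GENCODE. No region of any list lay over the part of the gene that follows it.

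**Figure D3:**
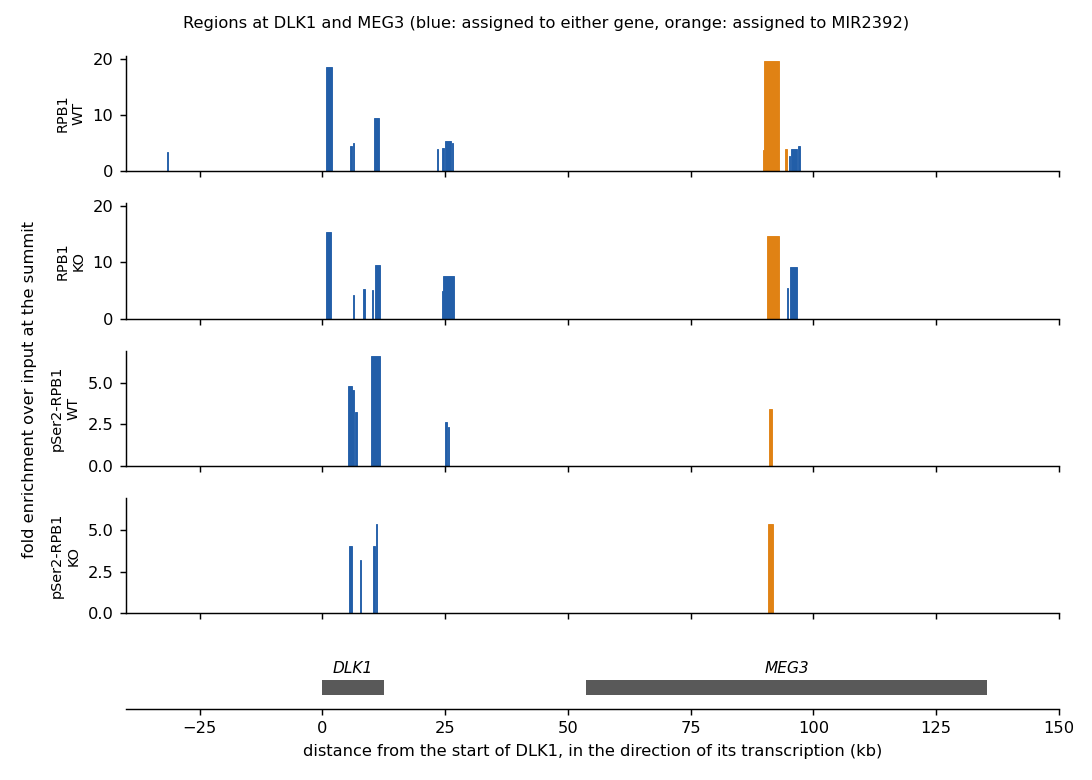
Regions at DLK1 and MEG3 in the 4 libraries, as boxes of the region's width (kb from the start of DLK1) and of its fold enrichment over input. DLK1 had RPB1 at both ends and pSer2-RPB1 in its middle and 3′ end. The tallest RPB1 region within the GENCODE span of MEG3, with 19.5 in WT and 14.7 in KO, was assigned to MIR2392. It lay upstream of the RefSeq starts of MEG3.

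The sequence of that MEG3 promoter is shown because no RPB1 region was listed there. RefSeq promoter windows (GRCh38.p14, from 150 bases before the start to 30 bases from it) were held for 4 of the 9 genes, and entries were missing for GPC3, DLK1, PEG10, IGF2BP1 and SALL4. Capitals mark 4 motifs on either strand. The GC box was searched as GGGCGG, the CCAAT box by its own letters, the TATA box as TATAAA and the E box as CACGTG. Over 35116 promoter windows of the same 180 bases, the GC box occurred in 38.7%, the CCAAT box in 25.4%, the TATA box in 7.28% and the E box in 5.19%. The MEG3 window held a CCAAT box and a TATA box.
MEG3 start at 100826108, chr14:100825958-100826137, plus strand: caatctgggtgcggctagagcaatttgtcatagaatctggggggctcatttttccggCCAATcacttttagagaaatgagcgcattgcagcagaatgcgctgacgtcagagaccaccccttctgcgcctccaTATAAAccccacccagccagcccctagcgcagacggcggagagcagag

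IGF2BP1, IGF2BP2 and IGF2BP3 encode oncofetal RNA-binding proteins that hold on to mRNAs such as those of IGF2 and MYC. All 3 had strong RPB1 at the start and pSer2-RPB1 that was spread through the gene in many separate regions. IGF2BP1 (chr17:48997385-49056145, plus strand) carried a promoter region of 3643 bp in WT (chr17:48995277-48998919, fold enrichment 36.2, rank 4015) and of 5886 bp in KO (chr17:48994411-49000296, fold enrichment 31.7, rank 2543). The larger KO region overlapped 2 weak WT regions beside the promoter, with 3.95 and 4.86. Cover by RPB1 within the gene was 4034 bp in WT and 4053 bp in KO. An internal promoter region, where GENCODE also places the start of an antisense noncoding RNA, had 4.70 in WT (chr17:49013484-49014160) and 10.0 in KO (chr17:49013308-49014017). ChIP-seq does not tell strands apart, and the transcript read there was not resolved.

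Cover of IGF2BP1 by pSer2-RPB1 increased from the 5′ to the 3′ end, from 17.3% of the first of 10 equal steps to 98.7% of the last in WT, and from 22.2% to 100% in KO. In all, 53.4% of the gene was covered in WT and 59.1% in KO. The strongest pSer2-RPB1 regions lay at and past the 3′ end, with 10.4 in WT in the 3′ UTR (chr17:49051740-49057232, rank 1840) and 10.6 in KO downstream of the gene (chr17:49057423-49059608, rank 1477). Joined across gaps of up to 1 kb, they ran 6.64 kb past the end in WT and 5.52 kb in KO. A further RPB1 region downstream of IGF2BP1, with 10.3 in WT (chr17:49068061-49069292) and 6.61 in KO, has a summit whose 31 bases occur 22602 times in hg38. The part of such repeated sequence in this value was not tested. The 31 bases at the WT summit of the strongest promoter region occur once for each of the 7 genes that had one.

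IGF2BP2 (chr3:185643130-185825042, minus strand) had the lowest KO to WT ratios of the family when the strongest regions were compared. The fold enrichment of its RPB1 promoter region was 48.6 in WT (chr3:185823235-185826771, rank 1884) and 22.3 in KO (chr3:185823185-185826654, rank 5104), while its width was 3537 and 3470 bp. Upstream, a region of 476 bp in WT (chr3:185836649-185837124) with 14.7 was overlapped by one of 412 bp in KO with 5.62. For this pair the ratio was 0.382, at the 1.86 percentile of all overlapping RPB1 pairs, and that of the promoter pair was 0.460, at the 4.68 percentile. Another upstream pair had a ratio above 1, with 3.18 in WT and 6.21 in KO. The strongest pSer2-RPB1 region spanned the 3′ end, with 20.1 in WT (chr3:185635896-185643884, rank 193) and 12.0 in KO (chr3:185637041-185643820, rank 982). At an internal start near the 3′ end, a promoter-class pSer2-RPB1 region with 6.61 in WT (chr3:185648471-185650204) was overlapped by 2 regions in KO. The one with the larger overlap had 6.20 (chr3:185648632-185649559), a ratio of 0.938, and the other, of 716 bp, had 8.75 (chr3:185649615-185650330). The last of the 10 steps was covered to 72.1% in WT and 70.0% in KO, whereas over the whole gene cover was 33766 bp in WT and 23872 bp in KO, 18.6% and 13.1% of the length. Where −log10 q-values had to reach 5 it was 10.1% in WT and 6.86% in KO. The nearest-gene annotation gave 35 pSer2-RPB1 regions within IGF2BP2 in WT and 21 in KO to its antisense gene IGF2BP2-AS1 or to the microRNA gene MIR548AQ.

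IGF2BP3 (chr7:23310209-23470491, minus strand) differed from the others in that its strongest RPB1 region did not hold its start. The promoter region had 23.7 in WT (chr7:23467889-23471874, rank 7292) and 14.9 in KO (chr7:23467839-23471994, rank 8199). A region a few kb upstream, classed as intergenic by the authors and overlapping a noncoding RNA gene of GENCODE, had 41.7 in WT (chr7:23473336-23475489, rank 2927) and 26.8 in KO (chr7:23473236-23475166, rank 3711). The ratios were 0.631 at the promoter and 0.644 upstream. Regions of pSer2-RPB1 also lay at the upstream site, with 6.02 in WT and 6.41 in KO, the latter the strongest under the name of the gene in that list. The strongest of that name in WT was at the 3′ UTR, with 7.003 (chr7:23312277-23314182, rank 5799), overlapped by a KO region with 4.36. A further 4 pSer2-RPB1 regions in WT and 5 in KO that overlapped the gene were named MALSU1 or SNORD65C. The strongest of them, named MALSU1 and reaching over the 3′ end, had 11.5 in WT (chr7:23303939-23310343) and 7.30 in KO (chr7:23303945-23310416). The summits of both, where the fold enrichment is read, lay past the end of IGF2BP3. Cover was measured by position and includes their parts within the gene. Along the gene pSer2-RPB1 regions covered 23352 bp in WT and 28796 bp in KO, 14.6% and 18.0% of its length, above the medians of 9.57% and 8.11% of coding genes with any cover. Under a minimum −log10 q-value of 5 these became 5.64% and 8.24%. Of the WT bases 42.3% were covered in KO, about as for IGF2BP2 with 42.9% and less than for IGF2BP1 with 81.6%.

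The promoters of IGF2BP2 and IGF2BP3 and the 101 bases around the summits upstream of each gene, read from hg38, are printed to show what the strong RPB1 regions of the family lie on. The IGF2BP2 window shown has a GC content of 82.2% and 4 GC boxes without overlap (a run of overlapping boxes counts once). IGF2BP3 has 58.9% and a single E box, where the median promoter window has 60%. Another RefSeq start of IGF2BP2, at 185821142, is not printed. Its window has a GC content of 35%, a CCAAT box and no GC box. The RPB1 region nearest to that start was 2093 bp away in WT and 2043 bp away in KO. The upstream summit of IGF2BP3 held none of the 4 motifs, and that of IGF2BP2 held a CCAAT box and ended in a run of T. The 31 bases in the middle of each upstream summit occur 1 time in hg38.
IGF2BP2 start at 185825042, chr3:185825013-185825192, minus strand: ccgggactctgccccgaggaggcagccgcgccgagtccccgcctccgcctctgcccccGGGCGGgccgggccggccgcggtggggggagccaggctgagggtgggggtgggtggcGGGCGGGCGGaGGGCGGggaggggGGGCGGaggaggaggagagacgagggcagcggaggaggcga
Summit upstream of IGF2BP2, chr3:185836844-185836944, plus strand: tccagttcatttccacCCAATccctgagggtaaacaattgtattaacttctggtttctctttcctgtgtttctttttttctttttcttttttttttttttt
IGF2BP3 start at 23470491, chr7:23470462-23470641, minus strand: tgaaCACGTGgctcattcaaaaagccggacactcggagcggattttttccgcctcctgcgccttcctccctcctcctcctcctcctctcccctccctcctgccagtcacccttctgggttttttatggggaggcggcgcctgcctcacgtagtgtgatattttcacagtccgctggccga
Summit upstream of IGF2BP3, chr7:23474168-23474268, plus strand: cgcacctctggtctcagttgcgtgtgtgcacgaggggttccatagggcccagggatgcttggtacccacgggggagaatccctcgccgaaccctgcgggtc

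**Figure D4:**
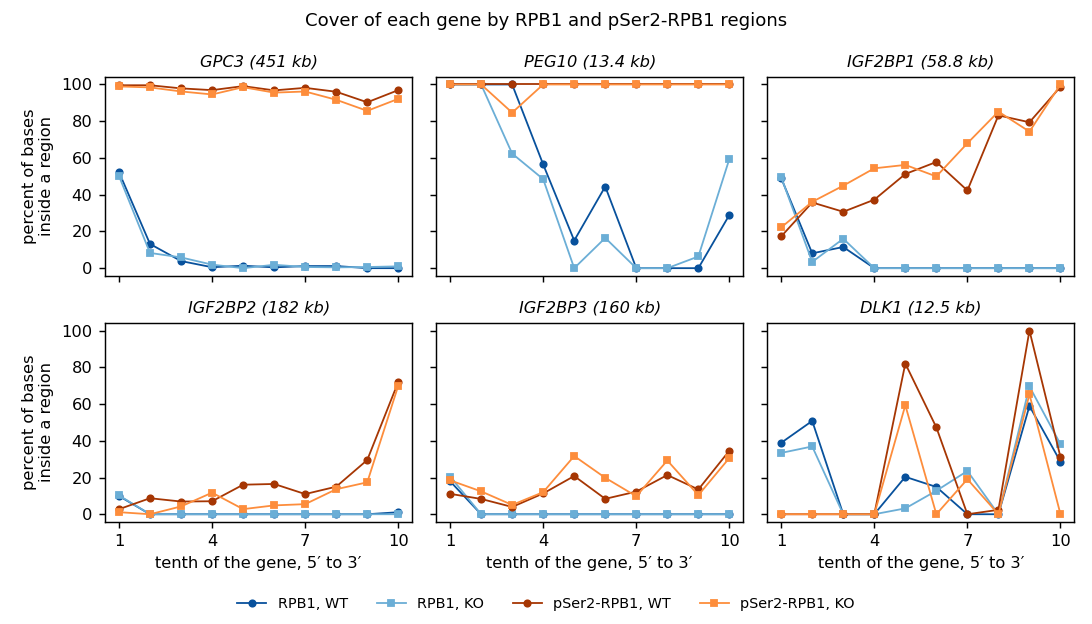
Percent of bases inside an RPB1 or pSer2-RPB1 region in 10 equal steps along each of 6 genes, from 5′ to 3′, 1 line per library. RPB1 lay mainly in the first steps of GPC3 and of the IGF2BP genes, and pSer2-RPB1 filled GPC3 and PEG10 almost entirely and reached its highest cover in the last step of IGF2BP1 and IGF2BP2 in both genotypes.

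LIN28B, an RNA-binding protein that blocks the maturation of let-7 microRNAs, and SALL4, a zinc finger transcription factor of stem and progenitor cells, were the protein-coding genes of the group with the lowest RPB1 fold enrichment under their own names. LIN28B (chr6:104936616-105083332, plus strand) was named by 4 RPB1 regions in each genotype. They had 6.64, 5.49, 4.29 and 3.47 in WT and 7.97, 5.83, 5.94 and 3.89 in KO, and each was overlapped by the other genotype. All 4 lay within about 3 kb of one another, around the downstream of its RefSeq starts. The KO to WT ratio of the strongest was 1.201, at the 92.1 percentile of genes. The upstream start lay in a much stronger RPB1 region that carried the name of the antisense gene LIN28B-AS1, with 30.2 in WT (chr6:104940154-104941839, rank 5447) and 26.6 in KO (chr6:104940241-104941913, rank 3763). By the name rule, LIN28B is thus listed without the strongest RPB1 region over its own start. Because ChIP-seq does not tell strands apart, the parts of LIN28B and LIN28B-AS1 in that region were not resolved. Hardly any pSer2-RPB1 was named after LIN28B, with 6 regions between 2.69 and 4.32 in WT and 2 regions with 3.25 and 4.50 in KO. They covered 1175 and 480 bp of the 147 kb gene, and none of the 6 was overlapped by a KO region.

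Both LIN28B starts are shown because their RPB1 regions differed in strength, with 30.2 and 5.49 in WT. The upstream window has a GC content of 68.3% and a GC box, and the downstream window has 43.9%, a CCAAT box and an E box.
LIN28B start at 104940965, chr6:104940815-104940994, plus strand: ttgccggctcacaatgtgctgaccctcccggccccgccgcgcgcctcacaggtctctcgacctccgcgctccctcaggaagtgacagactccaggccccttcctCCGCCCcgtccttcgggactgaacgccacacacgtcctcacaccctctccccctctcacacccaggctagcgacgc
LIN28B start at 104957107, chr6:104956957-104957136, plus strand: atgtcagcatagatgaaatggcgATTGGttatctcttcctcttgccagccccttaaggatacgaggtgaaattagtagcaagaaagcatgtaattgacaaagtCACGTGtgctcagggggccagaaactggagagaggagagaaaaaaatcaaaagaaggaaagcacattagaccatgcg

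SALL4 (chr20:51782331-51802521, minus strand) was named by no region in any of the 4 lists, and no region overlapped the gene by position. The lists hold only what passed the peak caller, so a region below its threshold would not be seen.

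Set against each other, the strongest RPB1 regions had lower fold enrichment in KO for 6 of the 8 genes and higher for LIN28B and MEG3, whose strongest regions by position carry other names. Lower values were common, since 69.8% of all genes had a ratio at or below that of IGF2BP1, the highest of the 6. The median ratio over the 8 genes was 0.777, and over all 12877 genes with a region in both lists it was 0.742, with a 5th to 95th percentile range from 0.432 to 1.33. The ratio was below 1/1.5 for IGF2BP2 with 0.460 and IGF2BP3 with 0.644, which is 2 of 8 genes beside 36.1% of all genes. It was above 1.5 for MEG3 alone, 1 of 8 genes beside 2.68% of all genes, where the regions set against each other do not overlap. The strongest region was also taken by position, among all that overlapped the gene or the 3 kb before its start, a choice made after seeing the data. By this measure all 8 genes were lower in KO. LIN28B had 0.881, the highest of the 8, which 75.5% of coding genes did not exceed, and MEG3 had 0.753. The median was then 0.740, beside 0.721 over 12685 coding genes, with 2 of 8 genes below 1/1.5 beside 39% of coding genes and none above 1.5 beside 1.28%. GPC3 with 0.673, PEG10 with 0.727, DLK1 with 0.827 and IGF2BP1 with 0.876 did not pass that size. For pSer2-RPB1 the median ratio was 0.916 over 7 genes and 0.936 over 10870 genes, with a 5th to 95th percentile range from 0.571 to 1.54. Only IGF2BP2 with 0.600 was below 1/1.5, which is 1 of 7 genes beside 11.7% of all genes, and none was above 1.5, beside 5.71%. For IGF2BP1, IGF2BP3 and LIN28B these regions did not overlap between genotypes. With the strongest WT region set against the KO region that overlapped it most, also a choice made after seeing the data, the ratio was 0.572 for IGF2BP1, 0.622 for IGF2BP3, 0.617 for DLK1, 0.457 for PEG10, 0.600 for IGF2BP2 and 0.957 for GPC3. That is 5 of 6 genes below 1/1.5, beside 23.4% of the 9045 genes with such a pair. Over those genes the median was 0.842, with a 5th to 95th percentile range from 0.481 to 1.49, and LIN28B had no such pair. Over all 53584 overlapping pSer2-RPB1 pairs the median was 1.00, so starting from the strongest WT region goes with lower ratios in general. Pairs started from the strongest KO region were not compared. At PEG10 and DLK1 the same WT region also overlapped a stronger KO region, which gave ratios of 0.857 and 0.810. These did not pass that size. With the strongest pSer2-RPB1 region taken by position, 3 of 8 genes were below 1/1.5, beside 12.9% of 10040 coding genes. These were IGF2BP1 with 0.659, IGF2BP2 with 0.600 and IGF2BP3 with 0.632. The last came from regions named MALSU1 whose summits lay past the end of IGF2BP3, so it is not a value from within the gene. Only MEG3 with 1.56 was above 1.5, beside 6.28% of coding genes. Under its own name, IGF2BP2 was at the 6.67 percentile for RPB1 and the 6.74 percentile for pSer2-RPB1. By the authors' gene names, all ratios of the oncofetal genes except that of MEG3 with RPB1, which was 0.753 by position, lay within the 5th to 95th percentile range.

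**Figure D5:**
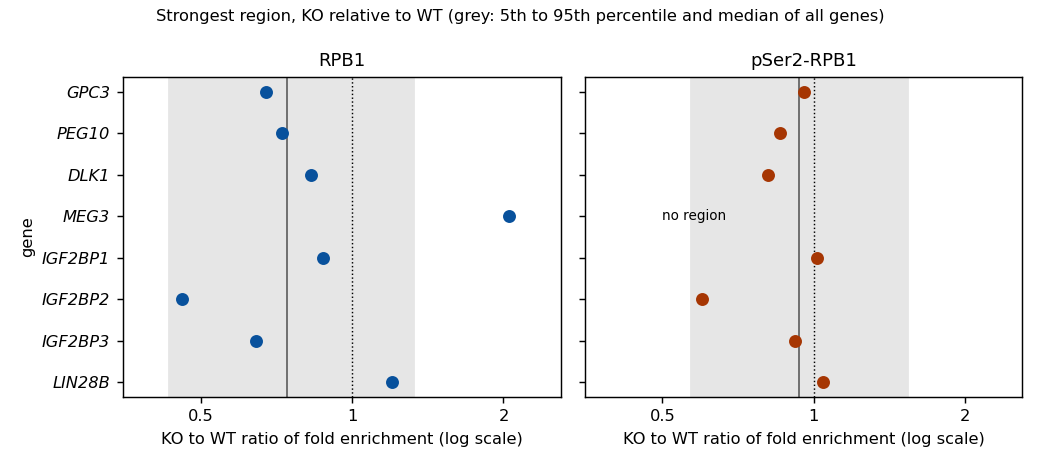
Ratio of the fold enrichment of the strongest region in KO to that in WT (log scale) for each gene with a region in both lists, 1 library per genotype, with the 5th to 95th percentile range and the median of all genes in grey and a dotted line at 1. IGF2BP2 lay near the lower edge for both antibodies, and MEG3 lay above the range for RPB1 with 2.05, from regions that do not overlap, where its strongest region by position gave 0.753.

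Regions present in a single genotype made up 46 of 111 RPB1 regions in WT, or 41.4%, beside 38.1% of all WT RPB1 regions. In KO it was 38 of 102, or 37.3%, beside 25.1%. For pSer2-RPB1 it was 78 of 234 in WT, or 33.3%, beside 47.8%, and 58 of 236 in KO, or 24.6%, beside 30.1%. Most of the RPB1 regions without a partner were weak regions in GPC3, which had 36 of the 46 in WT and 30 of the 38 in KO. For pSer2-RPB1 they were mainly in IGF2BP3, with 34 in WT and 38 in KO, and in IGF2BP2, with 20 and 9, whereas GPC3 had 6 and 1.

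Other oncofetal, hepatoblast and progenitor genes give a setting for these values. Of 20 such genes, 14 were named by an RPB1 region in each genotype, all with a promoter region. Their median KO to WT ratio was 0.896. Of the 14, 5 genes were below 1/1.5 (KRT19, TSPAN8, HMGA1, TERT and BEX1), beside 36.1% of all genes, and none was above 1.5, beside 2.68%. AFP, the fetal counterpart of albumin, had 34.2 in WT and 40.2 in KO for RPB1, and 24.7 and 24.2 for pSer2-RPB1. IGF2, a growth factor whose mRNA the IGF2BP proteins bind, had 49.1 and 66.3 for RPB1, and 8.13 and 26.9 for pSer2-RPB1. The pSer2-RPB1 values of IGF2 are by gene name, from 3 regions in WT and 1 in KO. Whether those regions overlap was not tested. No region was named after LIN28A, the paralog of LIN28B, or H19, the imprinted noncoding RNA beside IGF2. Regions under other names at their positions were not looked for.

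By the percentile of the strongest region in each of the 4 lists, compared with 24 genes of the companion and marker lists that had a region in all 4, GPC3 was most like SERPINA1, the gene of alpha-1 antitrypsin, with a mean absolute difference of 1.27 percentile points. TF, the transferrin gene, came next for GPC3 with 1.28 and was the gene most like PEG10 with 1.71. IGF2BP1 was most like TRA2A, a splicing factor gene, with 1.39. IGF2BP3 had MALSU1, the gene beyond its own 3′ end, with 2.85, DLK1 had SENP2 with 5.24 and LIN28B had SGCE with 8.96. These values depend on the names given. The strongest KO pSer2-RPB1 region named SGCE lay over PEG10, and the strongest pSer2-RPB1 regions named MALSU1 reached over the 3′ end of IGF2BP3.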

How the data were processed

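Region lists of 4 ChIP-seq libraries from HepG2 cells were used, for RPB1 and pSer2-RPB1 in each genotype, with groups taken from the labels. Per the labels and the study's methods, the authors used Trimmomatic for trimming, BWA for alignment to hg38 and MACS2 for calling narrow peaks against input. Versions are not given in the sources used here. The deposited lists give per region the fold enrichment at the summit (a ratio), the −log10 of the p-value and q-value, a MACS2 score, the summit offset, and the nearest gene and feature that the authors assigned. A table of the authors' own comparison of RPB1 regions (p-values, adjusted p-values and numbers of windows by direction) was not used.

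Regions were joined to the 9 genes by assigned symbol. Overlap between genotypes required at least 1 bp, and cover was the merged length of regions over the gene in GENCODE release 44. A ratio beyond 1.5-fold was counted, with no test. The overlap and cover functions were tested on simulated data. Motif counts used RefSeq promoter windows (GRCh38.p14), and the promoter entries of the 4 matched genes were identical to hg38. Summit sites and the 1 kb gap for runs past a gene end were chosen after values were seen. The genes named are the 9 members, their neighbors, other oncofetal genes, and cell type markers, all chosen with earlier results of these data known. Python 3.11.15, pandas 2.3.3, NumPy 2.4.6 and matplotlib 3.10.9 were used. Alternatives were a −log10 q-value of at least 5, assignment by position, regions of at least 300 bp, distinct intervals, 50% reciprocal overlap, promoter regions only, ratios over the median ratio, ranks by q-value, cover to 3 kb past the end, and promoter limits of 1 and 3 kb. The 3 kb limit, the ratio by position and the ratio of overlapping pairs were added after seeing the data. Some items are not reported here.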

Additional observations from a re-analysis of the deposited data

How the results depend on the processing

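With 1 library per group no value has a replicate error and the depth is unknown. No paired analysis was possible because each group has 1 library and no result comes from a test. Where −log10 q-values had to reach 5, the regions of the 9 genes numbered 55 and 51 for RPB1 and 136 and 145 for pSer2-RPB1, in WT and KO, and among regions of at least 300 bp they numbered 59, 54 and, for pSer2-RPB1 in WT, 149. Under a reciprocal overlap of 50%, the share found in both genotypes was 30.6% and 33.3% for RPB1 and 36.8% and 36.4% for pSer2-RPB1, against 58.6%, 62.7%, 66.7% and 75.4% with 1 bp. These alternatives keep fewer regions or pairs by construction. The pSer2-RPB1 ratio of IGF2BP2 was 1.32 for the strongest promoter region in each list and 0.600 for the strongest region anywhere. The RPB1 ratio of MEG3 was 2.05 by name and 0.753 by position, an alternative added after seeing the data. With −log10 q-values of at least 5, cover by pSer2-RPB1 moved for 7 of 16 values. Assignment by position gave 101, 97, 262 and 264 regions, within 1.5 times of the counts by name. The count of genes with a promoter region kept within 1 of its value under every limit tried. Ranks by q-value moved for 11 of 30 values.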
